A study of Mus musculus with 2 samples.

Results

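The 10 genes described here encode core glycolytic enzymes, from glucose-6-phosphate isomerase (Gpi1) to lactate dehydrogenase A (Ldha). They were taken by symbol from the deposited count table, and all 10 had a row among its 44792 rows. The genes are Gpi1, Aldoa, Aldoc, Tpi1, Pgk1, Pgam1, Eno1, Eno2, Pkm and Ldha, with a pair of isozyme genes each for aldolase (Aldoa and Aldoc) and enolase (Eno1 and Eno2). The table holds 2 RNA sequencing libraries of OCCM-30, an immortalized line of mouse cells that resemble cementoblasts, the cells that form tooth root cementum. The genotype of the line is given as wild type and was not checked here. One library came from cells under compressive force and one from control cells, both grown in DMEM with fetal bovine serum, penicillin and streptomycin. How large the force was and how long it lasted is not stated in the labels. With 1 library per group of a single immortalized line, no difference has a replicate check, and every interval below covers counting error only.

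Glycolysis splits glucose into pyruvate in the cytosol and yields ATP without oxygen. After phosphorylation by the hexokinases and phosphofructokinases, aldolase cuts the sugar into triose phosphates, and the remaining enzymes turn these into pyruvate, which lactate dehydrogenase reduces to lactate. Most of these enzymes are well-known targets of hypoxia-inducible factor (HIF), a transcription factor that binds a core DNA motif of the letters ACGTG or GCGTG. Aldoa and Eno1 are the broadly expressed isozymes, whereas Aldoc and Eno2 are best known from the nervous system, where Eno2 is called neuron-specific enolase.

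Start-site windows of 300 bases (250 before and 50 from the start) were available from RefSeq on GRCm38.p6 for all 10 genes, 17 windows in all, and 4 are shown for the highest ratio (Eno2), its counterpart among the aldolases (Aldoc), the lowest ratio (Pgk1) and the window with the most matches (Ldha). Each is written 5′ to 3′ along the strand of the gene, and capitals mark ACGTG or its reverse complement CACGT. The Eno2 window is chr6:124769624-124769923 (minus strand), that of Aldoc chr11:78322823-78323122 (plus), that of Pgk1 chrX:106186850-106187149 (plus) and that of Ldha chr7:46845554-46845853 (plus).
Eno2: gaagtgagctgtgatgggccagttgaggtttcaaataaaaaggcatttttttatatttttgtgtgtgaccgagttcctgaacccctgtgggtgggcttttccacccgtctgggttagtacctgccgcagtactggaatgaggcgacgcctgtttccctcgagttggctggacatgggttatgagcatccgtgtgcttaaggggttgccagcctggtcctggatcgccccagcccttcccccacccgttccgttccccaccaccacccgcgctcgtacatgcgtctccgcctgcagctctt
Aldoc: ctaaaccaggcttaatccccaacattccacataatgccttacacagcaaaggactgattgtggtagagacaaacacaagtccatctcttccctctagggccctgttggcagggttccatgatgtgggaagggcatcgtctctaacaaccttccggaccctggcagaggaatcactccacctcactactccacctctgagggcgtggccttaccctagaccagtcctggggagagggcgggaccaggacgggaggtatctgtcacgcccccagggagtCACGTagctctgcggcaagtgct
Pgk1: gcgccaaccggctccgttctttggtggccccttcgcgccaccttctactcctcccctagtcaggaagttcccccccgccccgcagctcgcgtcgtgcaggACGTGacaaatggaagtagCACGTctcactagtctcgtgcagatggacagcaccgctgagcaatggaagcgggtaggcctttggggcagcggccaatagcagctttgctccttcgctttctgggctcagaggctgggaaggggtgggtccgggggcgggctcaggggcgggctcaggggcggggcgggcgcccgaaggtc
Ldha: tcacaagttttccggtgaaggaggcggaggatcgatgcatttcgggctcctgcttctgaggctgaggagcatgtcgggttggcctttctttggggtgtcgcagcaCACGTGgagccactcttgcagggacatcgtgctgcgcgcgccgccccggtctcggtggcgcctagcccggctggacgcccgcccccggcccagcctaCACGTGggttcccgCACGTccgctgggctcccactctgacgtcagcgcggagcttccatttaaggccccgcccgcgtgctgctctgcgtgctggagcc
The Ldha window held the letters at 3 places. At 145 and 48 bases before the start they formed CACGTG, which matches on both strands and counts for each, and the remaining match lay 34 bases before the start. Pgk1 had ACGTG matches 150 and 131 bases before the start, Aldoc had 1 match 28 bases into the transcript, and Eno2 had none. The other form of the core, GCGTG or its reverse complement CACGC, is not in capitals. It stood in the Aldoc window 50 bases before the start and 12 bases into the transcript. In the Ldha window it stood 26 and 38 bases into the transcript, and the Pgk1 and Eno2 windows held none.

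Searched on both strands, ACGTG stood in at least 1 window of 6 of the 10 genes: Aldoa, Aldoc, Pgk1, Pgam1, Pkm and Ldha. The motif was in 21.8% of all 27025 genes with a window and in 29.6% of the 9067 with a level of at least 1 CPM (the count scaled to a common library size) in either library. Counted by window, it stood in 7 of the 17, or 41.2%, against 25.5% of the windows of those 9067 genes. GCGTG, also searched on both strands, was found for 4 of the 10 genes (Aldoc, Pgam1, Eno1 and Ldha), against 56.8% of the genes above 1 CPM. By window the shares were closer, at 8 of the 17, or 47.1%, against 50.9%. Gpi1, Tpi1 and Eno2 held neither motif. The 6 genes with ACGTG had ratios of the compressed to the control library from 1.17 (Pgk1) to 2.04 (Aldoc), and the 4 without it from 1.29 (Eno1) to 4.47 (Eno2). The ranges overlapped, and Eno1, among the 4 without ACGTG, held the other form of the core, GCGTG. Whether either motif is related to the ratios was not tested. A match is a description of the sequence and not a shown binding site.

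Depth was similar in the libraries, at 24296292 counts with compression and 25049919 without. Of the fixed cementoblast and osteoblast markers, 7 of 9 lay above 1 CPM, and none was called. Runx2, the osteoblast transcription factor, had 4416 counts against 5788, or 0.787 (0.757 to 0.819), the 1 marker of the list with an interval below 1. The intervals of 3 markers lay above 1: Spp1 at 1.10 (1.06 to 1.15), Col1a1 at 1.03 (1.02 to 1.04) and Col1a2 at 1.03 (1.02 to 1.03). Col1a1 and Col1a2 did not keep their direction under every scaling. The intervals of Sp7 (1.04), Alpl (1.08) and Postn (1.07) included 1. Bone sialoprotein (Ibsp) had 0 counts in both libraries and osteocalcin (Bglap) 12 against 11. Summed over the list, the level was 13115 CPM with compression and 12791 CPM without, most of it from Col1a1 (188419 counts against 188837) and Col1a2 (119396 against 120008). In bulk RNA, a change in the number of cells that express a gene and a change in RNA per cell cannot be told apart.

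All 10 glycolytic enzymes had more reads in the compressed library, with ratios from 1.17 for Pgk1 to 4.47 for Eno2. Together they took 0.780% of all reads in the compressed library and 0.593% in the control, a summed ratio of 1.32 (95% counting interval 1.31 to 1.33). Calls required 1 CPM or more in either library, an interval without 1, and a ratio of 2 or above (called higher) or of 0.5 or below (called lower). Under this rule 2 of the 10, Eno2 and Aldoc, were called higher and 0 lower. Over the 14001 genes above 1 CPM, 428 (3.06%) were called higher and 130 (0.929%) lower. With the ratios corrected by a loess fit on abundance, 345 genes were called higher and 194 lower, and Aldoc was no longer called. At a lower limit of 1.5-fold, Eno2 and Aldoc were again the enzymes called higher, against 7.31% of all genes, and 0 were called lower, against 3.71%.

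The other 8 enzymes lay in a narrow band of ratios, from 1.17 to 1.42, above the bulk of the transcriptome and below the fold limit. The interval of every one of the 10 lay above 1, as did that of 26.3% of all genes tested, while 28.6% had an interval below 1 and none of the 10 did. The median log2 ratio of the 10 was 0.45, or 0.39 without Aldoc and Eno2, against -0.01 over the 14001 genes. Pgk1, the lowest, had a higher ratio than 76.2% of the genes tested, and Tpi1 a higher ratio than 89.8%. Abundant genes varied less: among 2640 genes with a mean of at least 100 CPM, Pgk1 stood above 88.4%, Pkm above 92.5% and Tpi1 above 97.2%. In that abundance class 33.1% of genes had an interval above 1 and 20 genes (0.758%) were called higher, Eno2 among them as the 1 of 8 enzymes in the class.

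**Figure D1:**
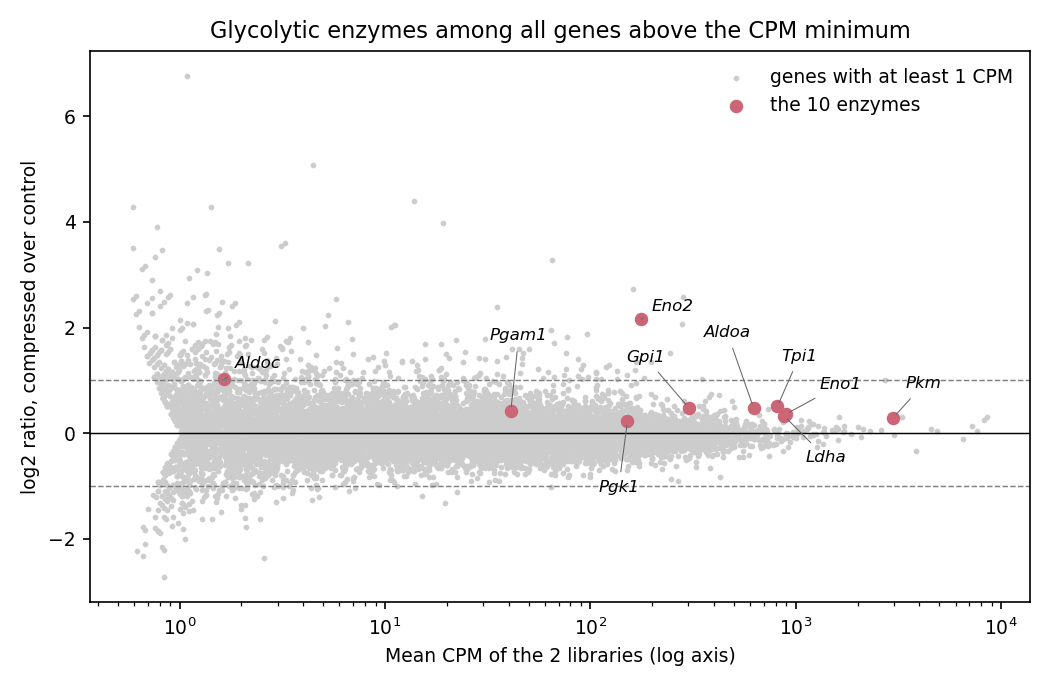
Each point is a gene with at least 1 CPM, placed by its mean CPM (log axis) and its log2 ratio of the compressed over the control library, with the 10 glycolytic enzymes in red and dashed lines at 2-fold. All 10 lie above 0, and Eno2, at 2.16, stands apart from the 8 enzymes between 0.23 and 0.51.

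The upper steps had nearly equal ratios. Gpi1, which converts glucose-6-phosphate to fructose-6-phosphate, had 8522 counts (351 CPM) in the compressed library and 6286 counts (251 CPM) in the control, a ratio of 1.40 (1.35 to 1.45). Aldoa, the main aldolase of most tissues, had 17624 counts against 13047, or 726 CPM against 521 CPM, a ratio of 1.39 (1.36 to 1.43). Tpi1, which interconverts the 2 triose phosphates that aldolase releases, had 23205 counts against 16831, or 955 CPM against 672 CPM, a ratio of 1.42 (1.39 to 1.45). The compressed library was the higher one for each of these enzymes, and their intervals overlapped. Set directly against each other, the ratio of Tpi1 over that of Gpi1 was 1.02 (0.979 to 1.06), and that of Gpi1 over that of Aldoa 1.00 (0.964 to 1.04).

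Aldoc, the brain-type aldolase, was the sparsest of the 10, and its ratio was the least certain. With compression it had 54 counts and without it 27, or 2.22 CPM against 1.08 CPM, a ratio of 2.04 (1.28 to 3.41). The number of Aldoc reads per Aldoa read was 1.48 times higher in the compressed library, with an interval of 0.916 to 2.45 that included 1. Whether the ratio of Aldoc was larger than that of Aldoa was therefore not resolved by these counts. Aldoc reads were 0.305% of the reads on Aldoc and Aldoa together in the compressed library (exact binomial interval 0.230% to 0.398%) and 0.207% in the control (0.136% to 0.300%). These shares count reads and are not corrected for transcript length. The call for Aldoc ended with a prior count of 5, at a ratio of 1.90, and with the loess fit, at a ratio of 1.87.

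**Figure D2:**
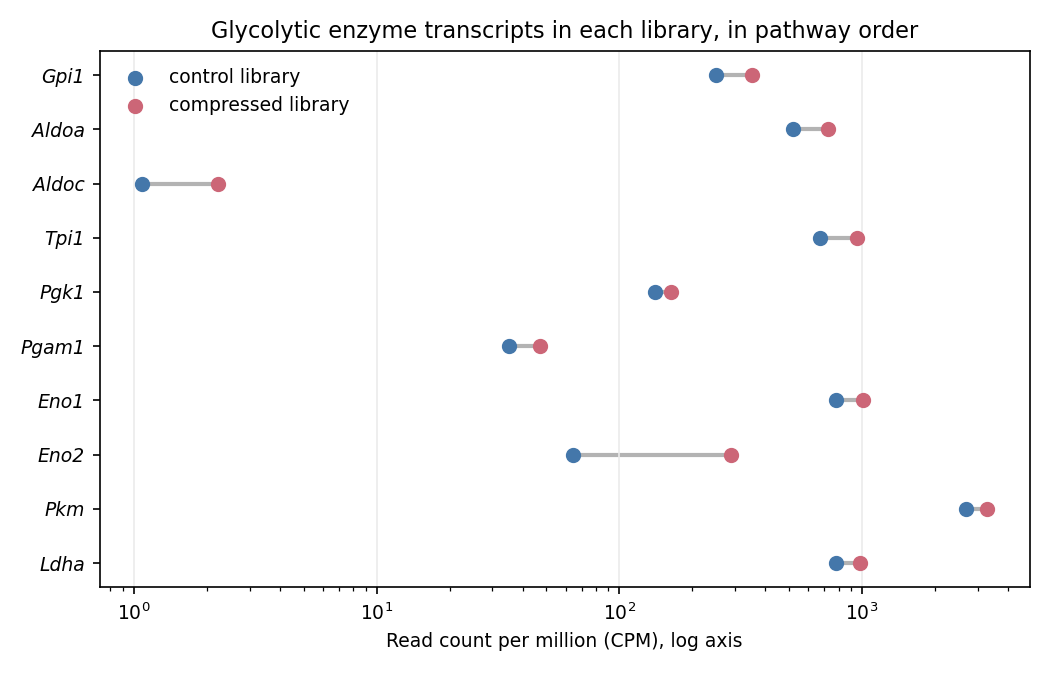
Levels of the 10 enzymes in CPM (log axis) in the control library (blue) and the compressed library (red), from top to bottom in pathway order, with 1 library per group and so no error bars. The red point lies to the right in every row, and the gap is widest for Eno2, at 64.4 CPM and 288 CPM.

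The ratios of Pgk1 and Pgam1, of the middle steps, differed in size, but their intervals met at 1.22 and they were not compared directly. These steps make the first ATP of the payoff phase and then move a phosphate group. Pgk1, the phosphoglycerate kinase that makes this ATP, had 3968 counts (163 CPM) with compression and 3499 counts (139.6 CPM) without, a ratio of 1.17 (1.12 to 1.22). Pgam1, the mutase that follows, had 1139 counts against 879, or 46.9 CPM against 35.1 CPM, a ratio of 1.34 (1.22 to 1.46). The ratio of Aldoa over that of Pgam1 was 1.04, with an interval of 0.951 to 1.14 that included 1. Bpgm, a related mutase that makes 2,3-bisphosphoglycerate, had 494 counts against 470, and its interval of 0.954 to 1.23 included 1. The testis-type Pgk2 had 0 counts in both libraries, so up to 0.124 CPM (compressed) and 0.120 CPM (control) could have been missed. The muscle-type Pgam2 had 2 counts against 0. Gapdh, which stands between Tpi1 and Pgk1 in the pathway, had 1347 counts against 757, a ratio of 1.84 (1.68 to 2.01), while its testis-type relative Gapdhs had 0 against 2. The mouse genome holds many near-identical processed copies of Gapdh, and how multiply aligned reads were counted is not stated, so that ratio is uncertain.

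Among the 10 genes, the largest ratio was that of Eno2, 1 of the isozymes of enolase, which forms phosphoenolpyruvate. Eno2 had 6992 counts with compression and 1615 without, or 288 CPM against 64.4 CPM, a ratio of 4.47 (4.23 to 4.72). Eno1 had 24458 counts against 19620, or 1007 CPM against 783 CPM, a ratio of 1.29 (1.26 to 1.31). Both isozymes were higher in the compressed library, but Eno2 by far more than Eno1. Eno2 reads per Eno1 read were 3.47 times higher in the compressed library (3.28 to 3.68), a quantity in which library scaling and transcript length cancel. The muscle-type Eno3 stood at 0.955 (0.865 to 1.05), from 783 counts against 846. The sperm-type Eno4 had 5 counts against 2. Of all reads on the 4 enolase genes, Eno2 took 21.7% in the compressed library (exact binomial interval 21.2% to 22.1%) and 7.31% in the control (6.97% to 7.66%). Over the same libraries the Eno1 share was 75.9% against 88.8%. The ratio of Eno2 was above that of 99.6% of the genes tested.

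**Figure D3:**
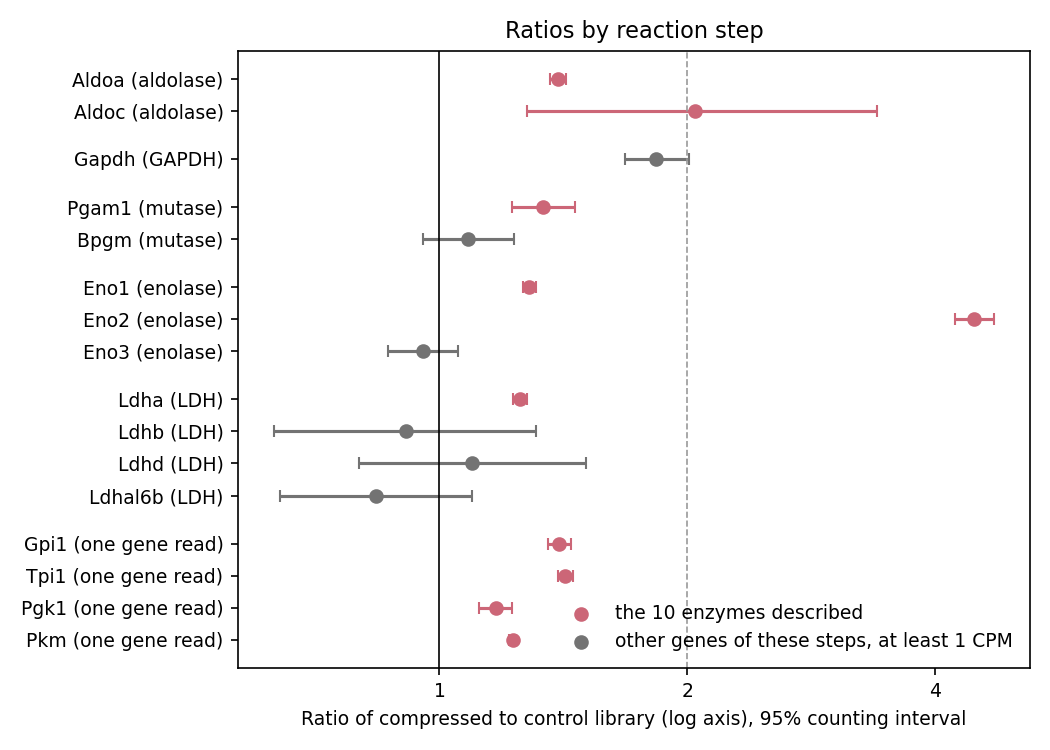
Ratios of the compressed to the control library on a log axis with 95% counting intervals, grouped by reaction step, for the 10 enzymes (red) and other genes of these steps with at least 1 CPM (grey). The solid line marks 1 and the dashed line 2, and the Eno2 interval of 4.23 to 4.72 lies clear of all others while that of Aldoc spans 1.28 to 3.41.

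Eno2 and Aldoc are known from neurons and astrocytes, so the markers of those cells were read in the same libraries. Of 6 neuron markers, Rbfox3, Snap25, Syt1, Stmn2 and Nefl had 0 counts in both libraries, and Syp had 23 against 25. Summed neuron marker levels were 0.947 CPM with compression and 0.998 CPM without. Of 5 astrocyte markers, Aqp4 and Slc1a2 had 0 counts in both, Gfap had 7 against 6, S100b had 3 against 0, and the glutamate transporter Slc1a3 had 1517 against 1733. Muscle markers, read because of Eno3 and Pgam2, summed to 4.86 CPM against 3.07 CPM, with Ckm, Myh1 and Myh2 at 0 in both libraries, Mb at 6 counts against 0 and Actn3 at 96 against 61. Macrophage, endothelial and epithelial markers had 6 genes above 1 CPM and none called, and their summed levels were 17.7 against 18.5 CPM, 4.32 against 4.15 CPM and 1.94 against 1.84 CPM.

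The enzymes of the last steps, Pkm and Ldha, had ratios close to each other. Pkm, pyruvate kinase of muscle and most dividing cells, had 79806 counts (3286 CPM) in the compressed library and 67092 counts (2677 CPM) in the control, a ratio of 1.23 (1.21 to 1.24). The table counts the gene as a whole, so its M1 and M2 splice forms were not separated, and the liver and red cell gene Pklr had 0 counts in both libraries. Ldha, which reduces pyruvate to lactate, had 23741 counts against 19547, or 978 CPM against 780.0 CPM, a ratio of 1.25 (1.23 to 1.28). Ldhb, the heart-type subunit, had 59 counts against 67, a ratio of 0.909 (0.629 to 1.31). Ldha reads per Ldhb read were 1.38 times higher in the compressed library, with an interval of 0.957 to 1.99 that included 1. Ldhd, a mitochondrial D-lactate dehydrogenase, had 85 counts against 80, Ldhal6b had 103 against 127, both with intervals that included 1, and the testis-type Ldhc had 0 in both.

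Ranked by ratio, the order was Eno2, Aldoc, Tpi1, Gpi1, Aldoa, Pgam1, Eno1, Ldha, Pkm and Pgk1. Neighbours in this order were set against each other by the ratio of their ratios, and for 7 of the 9 pairs the counting interval included 1. The exceptions were Eno2 over Aldoc, at 2.16 (1.31 to 3.51), and Pkm over Pgk1, at 1.05 (1.00 to 1.10), whose lower limit was just above 1. Enzymes farther apart did differ beyond counting error: the interval of Tpi1 (1.39 to 1.45) lay wholly above that of Pkm (1.21 to 1.24). The summed level of the 10 was 7803 CPM with compression against 5923 CPM without, a gain of 1879.9 CPM. Pkm contributed 32.4% of that gain, Tpi1 15.1%, Eno1 11.9%, Eno2 11.9% and Aldoc 0.0610%. These are parts of a read total and depend on transcript length, so they do not rank the genes by molecules.

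Intervals that cover counting error alone are narrow for abundant genes. Widened for an assumed coefficient of variation of 0.2 between cultures, a value not measured here, the interval of Eno2 was 2.56 to 7.80 and stayed above 1. Under the same assumption the intervals of the other 9 enzymes included 1, that of Aldoc at 0.996 to 4.20 and that of Tpi1 at 0.817 to 2.48.

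Genes of connected pathways were read from lists of fixed membership. By the same rule, 3.06% of the 14001 genes above 1 CPM were called higher and 0.929% lower. Upper glycolysis and its regulators had 3 of 11 genes above 1 CPM called higher, 0 lower and a median log2 ratio of 0.55. Those called were the glucose transporters Slc2a3, at 11.6 (6.68 to 23.9), and Slc2a1, at 2.74 (2.47 to 3.03), and the platelet-type phosphofructokinase Pfkp, at 2.07 (1.98 to 2.16), named after its value was seen. The lowest were the regulators Pfkfb4, at 1.01 (0.888 to 1.15), and Pfkfb2, at 1.05 (0.984 to 1.13). Genes of pyruvate and lactate exit had 14 members above 1 CPM with a median of 0.02. None was called lower, and the 3 called higher were Pdk1 and Pdk2, kinases that inhibit pyruvate dehydrogenase, at 3.01 (2.73 to 3.34) and 2.46 (2.02 to 3.02), and the lactate exporter Slc16a3, at 2.16 (2.05 to 2.27), the last named after its value was seen. The lowest were Pdhx, a component of the pyruvate dehydrogenase complex, at 0.829 (0.767 to 0.897), and Mpc2, a subunit of the mitochondrial pyruvate carrier, at 0.886 (0.769 to 1.02).

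At the 2-fold limit no gene was called among the other genes of the same steps. None was called in the gluconeogenic, pentose phosphate, serine and glycerol, and tricarboxylic acid cycle lists either. The other genes of the same steps had 6 of 13 above 1 CPM and a median log2 ratio of 0.03. Gapdh was the highest of the 6, at 1.84 (1.68 to 2.01), and the intervals of the rest included 1. The gluconeogenic bypass had 3 of 7 genes above 1 CPM, Pck2 at 1.27, Pcx at 1.16 and G6pc3 at 1.15, with a median of 0.21. In the pentose phosphate pathway, 7 genes had a median of -0.06, from G6pdx at 1.16 and Tkt at 1.13 to Rpe at 0.923 and Pgls at 0.921. In the serine and glycerol branches, 8 genes had a median of -0.07, from Gpd1 at 1.07 and Gpd2 at 1.02, both with intervals that included 1, to Psat1 at 0.894 and Shmt1 at 0.754. The 17 tricarboxylic acid cycle genes had a median of -0.02, with Idh2 at 1.16 and Idh3g at 1.11 the highest and Sdhd at 0.841 and Idh3a at 0.812 the lowest. That last median was 0.02 with the loess fit, so it had no stable direction.

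**Figure D4:**
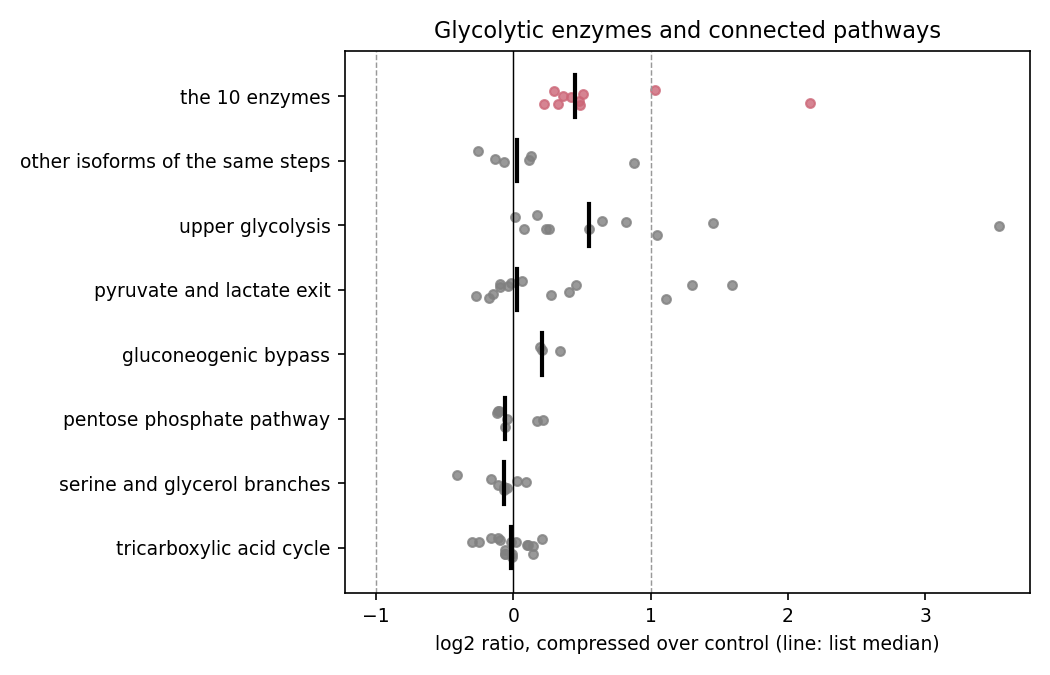
Log2 ratios of the compressed over the control library for the 10 enzymes (red) and for the genes above 1 CPM in lists of connected pathways (grey), with a black bar at each list median and dashed lines at 2-fold. The 10 enzymes have a median of 0.45 and upper glycolysis 0.55, while the lists of the pentose phosphate pathway and the tricarboxylic acid cycle stand at -0.06 and -0.02.

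Eno2 and Tpi1 lie close together on chromosome 6 of GRCm38, Eno2 at 124760053 to 124769673 and Tpi1 at 124810586 to 124814158, 40913 bases apart. Genes with at most 50 kb between them and one of the 10 enzymes were read, an addition made after the values were seen. Around Eno2, 8 such genes lay above 1 CPM, with a median log2 ratio of -0.01 and none called. Atn1, 3566 bases from Eno2, had 4486 counts against 3876, or 1.19 (1.14 to 1.25). Tpi1 had the highest ratio among the 8. The ratio of Eno2 was thus not shared by the genes beside it. Around all 10 enzymes, 33 other genes above 1 CPM had a median of 0.02, with 4 called higher and 0 lower. Over all 14001 genes above 1 CPM, 3.06% were called higher and 0.929% lower. The 4 calls are too few to compare these shares, and Tbx6 (52 counts against 21) and Gm3948 (49 against 24) were sparse. The called genes were Ypel3 and Tbx6 near Aldoa, at 3.24 (2.79 to 3.80) and 2.52 (1.51 to 4.47), Gm3948 near Aldoc, at 2.08 (1.27 to 3.59), and Parp6 near Pkm, at 2.13 (1.93 to 2.35).

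**Figure D5:**
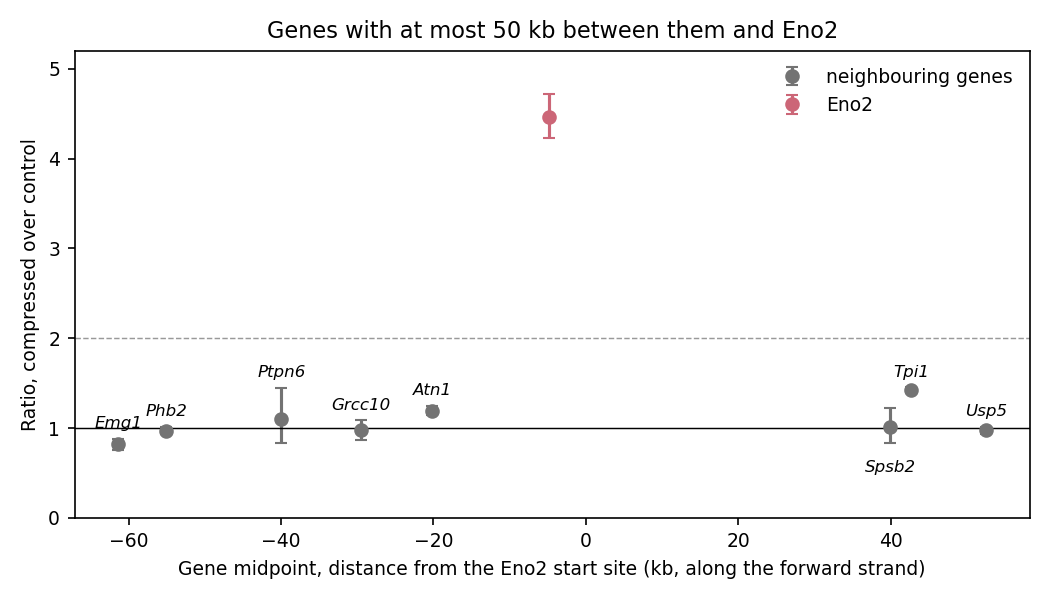
Ratios of the compressed to the control library with 95% counting intervals for Eno2 (red) and the 8 genes above 1 CPM with at most 50 kb between them and Eno2 (grey), placed by the distance of the gene midpoint from the Eno2 start site. Eno2 stands at 4.47, and the neighbours lie between 0.817 (Emg1) and 1.42 (Tpi1).

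Copies and overlapping genes limit how far reads can be assigned. By symbol, 17 rows were pseudogenes or related sequences of one of the 10 enzymes, 7 of them of Tpi1, and together they held 335 counts against 301. The 6 rows with at least 10 counts over both libraries were Tpi-rs11 (134 against 125), Tpi-rs2 (10 against 9), Pgk1-rs7 (73 against 66), Pgam1-ps2 (97 against 83), Pgam1-ps1 (6 against 4) and Ldha-ps2 (14 against 13). Their intervals all included 1. Other copies have symbols that do not name their parent and were not counted here, so the values of Pgk1, Pgam1, Tpi1, Ldha and other enzymes with copies are uncertain to that extent. The span of Tpi1 overlaps that of Spsb2, which had 218 counts against 222, a ratio of 1.01 (0.837 to 1.23).

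Among other genes with a mean of at least 100 CPM, the 5 whose log2 ratio was nearest to the median of the 10 enzymes were Aurkb, AW549877, Bsg, Adipor2 and Phactr4, with ratios between 1.36 and 1.37. Bsg encodes basigin, a partner protein of lactate transporters. With 2 libraries, this likeness is the closeness of a single ratio.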

How the data were processed

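RNA from 1 compressed and 1 control culture was sequenced. The authors deposited whole-number read counts per gene without normalization, and, per the submitters' processing notes, HISAT2 and the GRCm38 build were used. The counter, annotation, strand setting and handling of multiply aligned reads are not stated there.

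Counts were scaled with TMM factors (edgeR 4.0.16, R 4.3.3) over the whole table to give CPM. Log2 ratios used a prior count of 0.5, and ratios are their antilogs. Intervals are exact 95% conditional binomial (Clopper-Pearson) or, for a ratio of ratios, exact conditional odds-ratio intervals (scipy 1.17.1). A count of 0 was given a floor of 3 counts. Reads are not independent molecules, so intervals and floors cover counting error only. With 1 library per group no p-value was computed. The calling rule was run on simulated counts with counting error alone. That run held no variation between cultures and did not check calls for sparse genes such as Aldoc.

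The members and lists were chosen with earlier results of these data known. Named were all 10 members, the listed genes of the same steps (1 of them is not reported here), the 2 highest and 2 lowest of each pathway list, the 5 nearest genes and symbol-marked copies with at least 10 counts. Promoter windows and gene positions came from RefSeq tables of GRCm38.p6. Alternatives were total-count, upper-quartile, loess and DESeq2 1.42.0 scaling, other CPM minimums, prior count and fold limit, a widened interval and summed copies. Motifs and neighbouring genes were added after the values were seen.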

Additional observations from a re-analysis of the deposited data

How the results depend on the processing

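All 10 enzymes kept a ratio above 1 under the 6 settings in which their ratios were recomputed (total-count, DESeq2, upper-quartile and loess scaling, a prior count of 5, and copies summed with their parent). Of those 60 values, 59 stayed inside the original counting interval. The median log2 ratio ranged from 0.44 with DESeq2 factors to 0.47 with the loess fit. The number of enzymes called higher was 2, and it was 1, Eno2, with the loess fit, a prior count of 5, the assumed coefficient of variation of 0.2, or a CPM minimum of 5 or 100. Aldoc was the one lost; it has 54 and 27 counts and lies below 5 CPM, a larger prior count draws its ratio toward 1, and for the loess fit the cause was not tested. Checks at other CPM minimums for the 10 enzymes, and of the lists and pair ratios under other scalings, were chosen after seeing the data. Over the whole table, genes called higher and lower were 1023 and 520 at a fold limit of 1.5, 773 and 369 with no CPM minimum, 154 and 12 at a minimum of 5, and 35 and 0 at 100, against 428 and 130. The tricarboxylic acid cycle median turned from -0.02 to 0.017 with the loess fit. The Eno2 to Eno1 change was 3.52 with the loess fit and the Aldoc to Aldoa change 1.33. No paired analysis was possible because each group has 1 library.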
